A study of Mus musculus with 9 samples.

Results

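The enzymes that turn prohormones into hormones, together with the small proteins that escort or restrain them, were followed in mouse pancreatic islets through 9 genes chosen by name: Pcsk1, Pcsk2, Cpe, Pam, Pcsk1n, Scg5, Cpd, Furin and Qpct. All 9 were found among the 22048 genes of the count table, and 8 of them had enough counts to be tested; Qpct did not. The islets, taken from wild-type mice of the outbred ICR strain, had been cultured for 3 days in RPMI medium with 11.8 mM glucose (basal), 20 mM (hyperglycemic) or 35 mM (extreme hyperglycemic), with 3 libraries at each concentration. For the highest of these the treatment text alone reads 25 mM; 35 mM stands in the titles, the characteristics and the design, and was used here. The islets came from 9 mice, but the labels do not tie a mouse to a library. The p-values therefore set a difference only against the spread between these libraries, and that spread may be technical.

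Peptide hormones are made as long precursors that are cut and trimmed inside the secretory pathway and its granules. The convertases PC1/3 (Pcsk1) and PC2 (Pcsk2) cut at pairs of basic residues, carboxypeptidase E (Cpe) removes the basic residues left at the new ends, and peptidylglycine alpha-amidating monooxygenase (Pam) amidates peptides that end in glycine, such as amylin. The protein proSAAS (Pcsk1n) binds and inhibits PC1/3, and 7B2 (Scg5) is the chaperone that PC2 needs to become active. In beta cells PC1/3, PC2 and carboxypeptidase E make insulin and C-peptide out of proinsulin.

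Libraries held 3228648 to 4559561 gene counts of CEL-Seq2, a method that reads the 3' end of each transcript, so that counts do not scale with transcript length. Levels are given as CPM, the count scaled to a library of 1000000 counts, with library sizes scaled by TMM (factors of 0.906 to 1.14, both extremes at 11.8 mM) and without a length correction. The tissue was described with marker lists. At every concentration 9 of 9 beta cell and 6 of 6 alpha cell markers had counts, but so did 10 of 10 acinar markers, so a count alone does not tell tissues apart. Both PP cell markers had counts as well, and of the delta cell markers Ghsr had none at 11.8 mM. Beta cell markers, which include the insulin genes, took 51.0% to 59.0% of the counts at 11.8 mM, 50.6% to 55.4% at 20 mM and 52.1% to 56.6% at 35 mM. Alpha cell markers took 1.41% to 1.94%, 1.305% to 1.705% and 1.27% to 1.52% in the same order. Delta cell markers took 1.03% to 1.99%, 1.44% to 1.67% and 1.60% to 1.68%, and PP cell markers 0.513% to 0.864%, 0.640% to 0.862% and 0.649% to 0.804%. The acinar list, for exocrine tissue, held 0.319% to 1.18%, 0.676% to 1.20% and 0.629% to 1.09% in the same order, and the list for fibroblasts and stellate cells held 0.0204% to 0.0420%, 0.0151% to 0.0254% and 0.0154% to 0.0256%. Macrophage and immune markers took 0.0137% to 0.0172%, 0.0119% to 0.0169% and 0.0104% to 0.0149%, and endothelial markers at most 0.00151% in any library, with Kdr at 0 in all 35 mM libraries. Ductal markers took 0.0171% to 0.0287%, 0.0220% to 0.0319% and 0.0283% to 0.0352%, and none of the 4 tested passed the edgeR test in any comparison. The part of these shares in the results was not tested, apart from the acinar share, which was added to the model as a covariate. In whole islets, fewer cells of a type and less RNA per cell cannot be told apart. Each library is the sum of 3 barcoded sub-libraries, and 2 of the 27 were low in an insulin gene, 1 in replicate 1 at 11.8 mM (Ins1 at 11.8% of its counts, where the rest of that sample had 26.3%) and 1 in replicate 1 at 35 mM (Ins2 at 10.6%, where the rest had 29.0%).

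The promoters of Pcsk1 and Pam, the members whose libraries at both raised concentrations lay above all libraries at 11.8 mM, and of Pcsk2, the other granule convertase, are shown because the results turn on them. They are RefSeq sequences of build GRCm38.p6, 250 bases before to 50 bases after the annotated start, read 5' to 3' on the strand of the gene. Capitals mark matches to TGACG, the core of the cyclic AMP response element, on either strand (CGTCA in the printed letters). The 8-base palindrome TGACGTCA holds a TGACG on each strand, and both overlap.
Pcsk1: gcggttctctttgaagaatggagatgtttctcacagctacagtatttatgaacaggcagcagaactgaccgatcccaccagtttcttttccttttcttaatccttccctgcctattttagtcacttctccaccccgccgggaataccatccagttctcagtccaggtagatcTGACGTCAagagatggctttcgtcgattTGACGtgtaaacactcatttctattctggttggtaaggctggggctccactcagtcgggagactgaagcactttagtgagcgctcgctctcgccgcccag
Pcsk2: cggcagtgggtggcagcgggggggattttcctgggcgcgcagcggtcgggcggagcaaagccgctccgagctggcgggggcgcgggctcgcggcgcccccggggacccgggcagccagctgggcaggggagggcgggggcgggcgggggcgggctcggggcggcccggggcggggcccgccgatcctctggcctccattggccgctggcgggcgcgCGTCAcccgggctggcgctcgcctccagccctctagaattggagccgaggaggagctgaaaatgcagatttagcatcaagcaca
Pam: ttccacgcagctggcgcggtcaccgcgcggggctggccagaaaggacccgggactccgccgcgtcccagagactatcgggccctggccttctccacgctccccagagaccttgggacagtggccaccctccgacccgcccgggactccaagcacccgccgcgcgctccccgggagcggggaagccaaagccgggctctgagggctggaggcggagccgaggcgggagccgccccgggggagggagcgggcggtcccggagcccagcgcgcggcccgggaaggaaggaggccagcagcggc
The Pcsk1 window is chr13:75089607-75089906 on the plus strand, that of Pcsk2 chr2:143545883-143546182 on the plus strand, and that of Pam chr1:98095597-98095896 on the minus strand. Pcsk1 held TGACGTCA once, beginning 78 bases before the start, and a further TGACG 50 bases before it. Pcsk2 held a single TGACG, on the opposite strand at 34 bases before the start, and the printed Pam window held none. TGACGTCA was present in 1.79% and TGACG in 20.8% of the 32817 mouse promoters of the same length searched. CACGTG, the E-box read by several glucose-responsive factors, was in none of the members' promoters and in 7.15% of all promoters. Of the other members with an entry, Scg5 held 3 TGACG and Furin 2 in the first of its promoters listed, and Pcsk1n and Cpd none. Cpe and Qpct were among the 2 members without a promoter entry. A match describes the letters in these windows only.

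The members spanned a wide range of abundance in islets. Among the tested genes ordered by mean level, Pcsk1n stood at place 17 and Pcsk2 at place 18, followed by Scg5 at 42, Cpe at 53, Pam at 125, Pcsk1 at 333, Furin at 1335 and Cpd at 3639. Within 11.8 mM the order of mean levels was Pcsk1n, Pcsk2, Scg5, Cpe, Pam, Pcsk1, Furin, Cpd and Qpct. The libraries of Pcsk1n and Pcsk2, and those of Scg5 and Cpe, overlapped there, so neither pair was separated by its spread. At 20 and 35 mM Pcsk2 came before Pcsk1n by mean, again with overlapping libraries, and every other neighbouring pair was separated. Together the 9 genes took 0.521% to 0.780% of the counts at 11.8 mM, 0.640% to 0.663% at 20 mM and 0.655% to 0.714% at 35 mM.

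**Figure D1:**
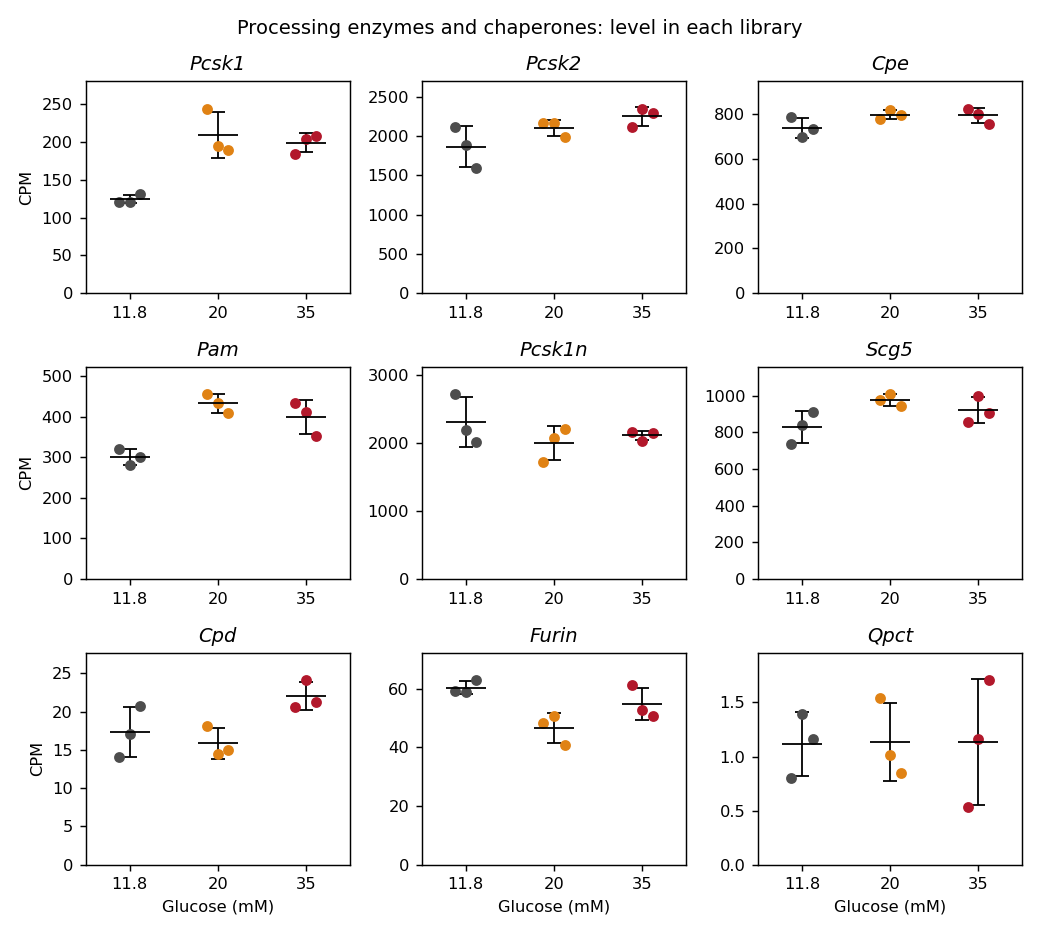
Level of each of the 9 genes (CPM, linear axis from 0 in each panel) against glucose concentration (11.8, 20 and 35 mM). Points are libraries and bars the mean ± SD of 3; the Pcsk1 libraries at 11.8 mM, 121 to 131 CPM, lie below all those at 20 and 35 mM.

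Among the convertase genes only Pcsk1, for PC1/3, passed the test, at both raised concentrations against 11.8 mM. Pcsk1 (ENSMUSG00000021587, chr13:75089826-75134861, plus strand, GRCm38) had 121, 121 and 131 CPM in the libraries at 11.8 mM, 244, 195 and 190 CPM at 20 mM and 185, 205 and 209 CPM at 35 mM. All 6 libraries at the raised concentrations lay above the 3 at 11.8 mM, and the 20 and 35 mM libraries overlapped. The mean was 199 ± 12.7 CPM at 35 mM and 124 ± 5.58 CPM at 11.8 mM (SD, n = 3 each), a log2 fold change of 0.68 (SE 0.13, 1.60-fold, adjusted p = 0.0050 by the quasi-likelihood test of edgeR, with p-values adjusted by Benjamini and Hochberg over all tested genes). At 20 mM it was 210 ± 30.0 CPM, a log2 fold change of 0.75 against 11.8 mM (SE 0.13, 1.69-fold, adjusted p = 0.0054, edgeR). These comparisons share the 11.8 mM libraries. Between 35 and 20 mM the log2 difference of Pcsk1 was -0.07, with a 95% interval of -0.34 to 0.20 and an adjusted p of 0.98 (edgeR).

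The call of Pcsk1 at 20 mM rested on replicate 1, its highest library: without it the log2 fold change was 0.63 and the adjusted p 0.085 (edgeR). With the acinar share as a covariate the log2 fold changes of Pcsk1 were 0.68 (adjusted p = 0.014, edgeR) at 35 mM and 0.74 (adjusted p = 0.035, edgeR) at 20 mM, and without the sub-libraries low in an insulin gene they were 0.68 and 0.74.

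The sub-libraries show the same separation at a finer grain. They are barcoded parts of the same samples and no replicates, and their levels are CPM of their own, unscaled counts. Pcsk1 had 95.6, 122 and 148 CPM (lowest, median and highest of 9) in the 11.8 mM sub-libraries, 173, 194 and 253 CPM in those at 20 mM and 180.4, 193 and 226 CPM in those at 35 mM. No sub-library at 11.8 mM reached the lowest at either raised concentration. Within a sample the SD of Pcsk1 among sub-libraries was 13.5 CPM at 11.8 mM, 11.7 CPM at 20 mM and 17.1 CPM at 35 mM.

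**Figure D2:**
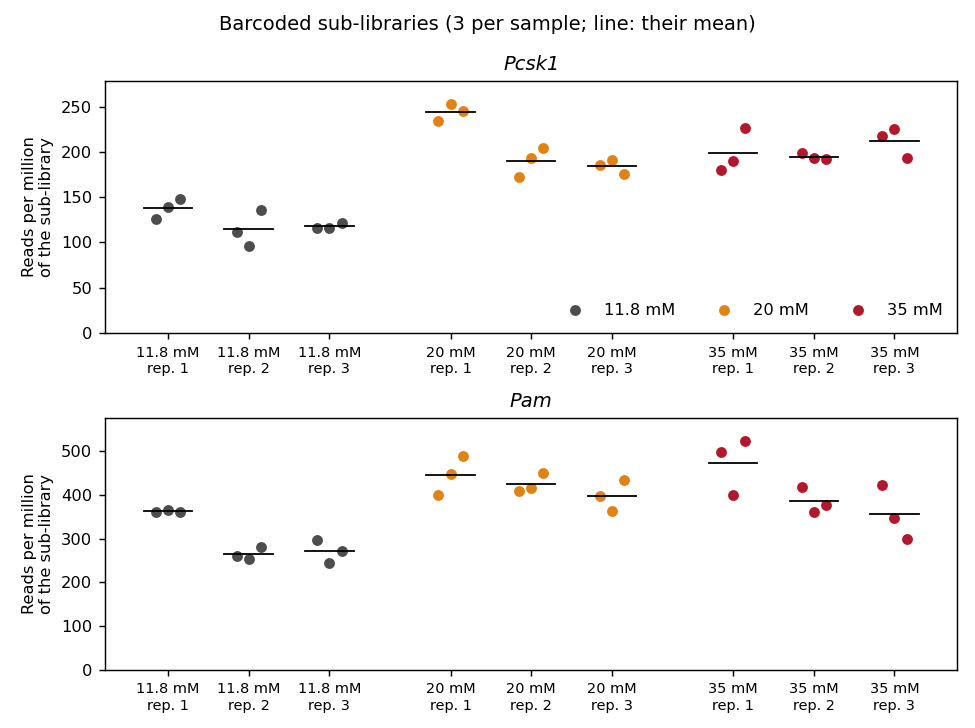
Level of Pcsk1 and Pam (CPM of each sub-library's own counts) in the 27 barcoded sub-libraries, grouped by sample and by glucose concentration (11.8, 20 and 35 mM); points are sub-libraries, 3 per sample, and lines their mean. For Pcsk1 the highest 11.8 mM sub-library has 148 CPM and the lowest at a raised concentration 173 CPM, whereas for Pam the 11.8 and 35 mM sub-libraries overlap.

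PC2, by far the more abundant convertase by 3' counts, did not pass the test at either concentration. Pcsk2 (ENSMUSG00000027419, chr2:143546156-143816285, plus strand) had 2115, 1889 and 1600.5 CPM at 11.8 mM, 2171, 2162 and 1993 CPM at 20 mM and 2116, 2349 and 2292 CPM at 35 mM. The 35 mM libraries all lay above those at 11.8 mM, the closest pair by about 1 CPM, and the 20 mM libraries overlapped with them. The log2 difference was 0.27 at 35 against 11.8 mM (95% interval 0.0049 to 0.54, adjusted p = 0.47, edgeR) and 0.17 at 20 against 11.8 mM (95% interval -0.09 to 0.44, adjusted p = 0.80, edgeR). Single libraries moved these values: without replicate 3 at 11.8 mM they were 0.16 at 35 mM and 0.068 at 20 mM, and without replicate 1 at 11.8 mM the 20 mM value was 0.27. Its exons overlap those of the antisense genes Pcsk2os1 and Pcsk2os2, and the counting strand is not given in the sources used here. It is therefore not known whether reads in the shared stretches were counted for Pcsk2 or set aside as ambiguous.

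Furin, the convertase of the trans-Golgi network found in most cell types, was present at a lower level than Pcsk1 and Pcsk2. Furin (ENSMUSG00000030530, chr7:80388585-80405436, minus strand) had 59.2, 59.0 and 62.9 CPM at 11.8 mM, 48.3, 50.8 and 40.9 CPM at 20 mM and 61.2, 52.8 and 50.8 CPM at 35 mM. The 20 mM libraries all lay below those at 11.8 mM and, by a margin under 1 CPM at the closest, below those at 35 mM, while the 35 and 11.8 mM libraries overlapped. No comparison passed the test: the log2 difference was -0.37 at 20 against 11.8 mM (95% interval -0.66 to -0.08, adjusted p = 0.46, edgeR) and -0.13 at 35 against 11.8 mM (95% interval -0.42 to 0.16, adjusted p = 0.84, edgeR). The 35 mM value was -0.22 without replicate 1 and -0.080 without replicate 3 at 35 mM. The gene overlaps Gm44851 on the other strand, which adds the same uncertainty of strand.

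The binding partners of the convertases did not pass the test. Pcsk1n (ENSMUSG00000039278, chrX:7919822-7924410, plus strand, with exons that overlap Eras on the other strand) had 2712, 2193 and 2010.4 CPM at 11.8 mM, 1721, 2066 and 2199 CPM at 20 mM and 2158, 2029 and 2142 CPM at 35 mM. The 3 groups overlapped, and replicate 1 at 11.8 mM was the highest of the 9 libraries. The log2 difference was -0.13 at 35 against 11.8 mM (95% interval -0.40 to 0.15, adjusted p = 0.83, edgeR) and -0.21 at 20 against 11.8 mM (95% interval -0.48 to 0.07, adjusted p = 0.74, edgeR). Without replicate 1 at 11.8 mM they were 0.0018 and -0.078. The 35 mM value was -0.22 without replicate 3 at 11.8 mM, and the 20 mM value was -0.12 without replicate 1 at 20 mM.

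The PC2 chaperone Scg5 (ENSMUSG00000023236, chr2:113776362-113829121, minus strand) had 737, 840.02 and 912 CPM at 11.8 mM, 976, 1007 and 944 CPM at 20 mM and 857, 997 and 908 CPM at 35 mM. The 20 mM libraries lay above those at 11.8 mM without overlap, and the 35 mM libraries overlapped with both. The log2 difference was 0.23 at 20 against 11.8 mM (95% interval -0.02 to 0.49, adjusted p = 0.67, edgeR) and 0.15 at 35 against 11.8 mM (95% interval -0.11 to 0.41, adjusted p = 0.77, edgeR). Without replicate 1 at 11.8 mM they were 0.15 at 20 mM and 0.068 at 35 mM, and without replicate 2 at 35 mM the 35 mM value was 0.090.

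The balance between a convertase and its partner was read as a ratio of counts within a library, which needs no scaling between libraries. For every 100 Pcsk2 reads there were 5.72, 6.42 and 8.17 Pcsk1 reads at 11.8 mM, 11.3, 9.04 and 9.51 at 20 mM and 8.74, 8.71 and 9.10 at 35 mM. The ratio was higher in all raised-glucose libraries, 1.32-fold at 35 mM and 1.48-fold at 20 mM by mean log2 ratio. For every 100 Pcsk1n reads there were 4.46, 5.53 and 6.51 Pcsk1 reads at 11.8 mM, 14.2, 9.45 and 8.62 at 20 mM and 8.57, 10.1 and 9.73 at 35 mM. Again the groups did not overlap, with a 1.74-fold higher mean at 35 mM and a 1.93-fold higher mean at 20 mM. For every 100 Pcsk2 reads there were 34.8, 44.5 and 57.0 Scg5 reads at 11.8 mM, 45.0, 46.6 and 47.4 at 20 mM and 40.5, 42.5 and 39.6 at 35 mM. Both raised concentrations overlapped with 11.8 mM. The 35 mM libraries all lay below those at 20 mM, a comparison that was not tested for the ratios. In 6 two-sided exact permutation tests of the log2 ratios, both Pcsk1 ratios had p = 0.1 at each raised concentration, the smallest that 3 against 3 libraries can give (adjusted 0.15), and the Scg5 to Pcsk2 ratio had p = 0.7 in each. With a library left out or 1 barcode set alone, the Pcsk1 to Pcsk2 ratio kept its sign in all 9 alternatives. At 35 mM its log2 difference then ran from 0.27 to 0.55, with exact permutation p of 0.1 to 0.4. At 20 mM it ran from 0.45 to 0.71, with exact permutation p of 0.1 to 0.2.

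**Figure D3:**
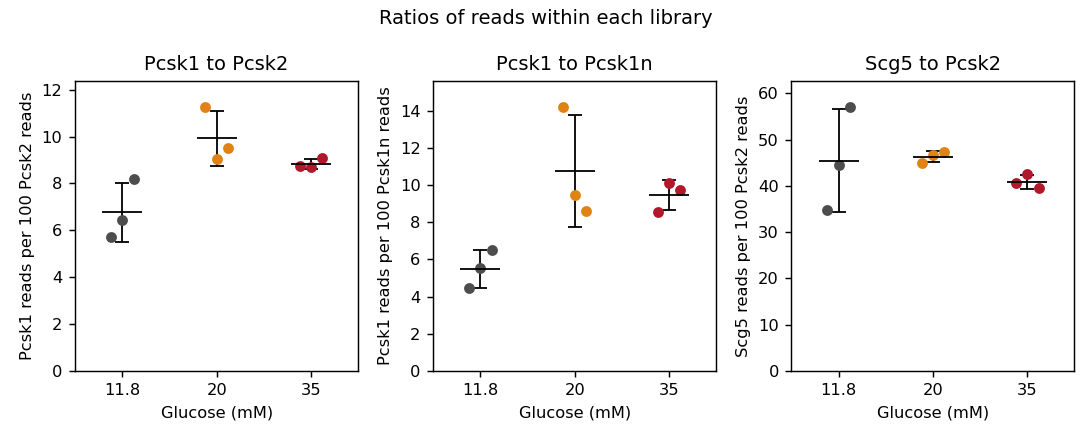
Reads of Pcsk1 per 100 reads of Pcsk2, of Pcsk1 per 100 of Pcsk1n and of Scg5 per 100 of Pcsk2 against glucose concentration (11.8, 20 and 35 mM); points are libraries and bars the mean ± SD of 3. Both Pcsk1 ratios lie above the 11.8 mM libraries at 20 and 35 mM. The Scg5 to Pcsk2 ratio at 20 and at 35 mM overlaps with that at 11.8 mM, and its 35 mM libraries lie below those at 20 mM.

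Pam, the only amidating enzyme of the group, had libraries above those at 11.8 mM at both raised concentrations but did not pass the test in the edgeR fit. Pam (ENSMUSG00000026335, chr1:97795114-98095646, minus strand) had 319, 279.6 and 300.4 CPM at 11.8 mM, 455, 434 and 409 CPM at 20 mM and 434, 411 and 352 CPM at 35 mM. No library at 11.8 mM reached the lowest at 20 or 35 mM. The mean was 399 ± 42.1 CPM at 35 mM and 300 ± 19.7 CPM at 11.8 mM (SD, n = 3 each), a log2 difference of 0.41 (95% interval 0.15 to 0.67, adjusted p = 0.15, edgeR). At 20 mM it was 432 ± 22.7 CPM, a log2 difference of 0.53 (95% interval 0.27 to 0.79, adjusted p = 0.084, edgeR).

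The call of Pam depended on the test. By DESeq2's Wald test Pam passed at both concentrations, with an adjusted p of 0.0260 at 35 mM and 0.00023 at 20 mM after the tool's own filtering, where that test called 1.17% and 8.12% of the genes it kept. Run on the genes that passed the expression filter, of which it called 0.863% and 0.349%, the same test gave Pam 0.073 at 35 mM and 0.0078 at 20 mM. Without replicate 1 at 11.8 mM the edgeR fit called Pam at 20 mM (log2 0.57, adjusted p = 0.0489). In the sub-libraries Pam had 244, 280.1 and 365 CPM at 11.8 mM (lowest, median and highest of 9), 363, 417 and 490 CPM at 20 mM and 299.6, 399 and 524 CPM at 35 mM. The 11.8 mM sub-libraries overlapped with both raised concentrations, by about 1 CPM at 20 mM, and those of replicate 1 were the high ones. Its exons overlap B230216N24Rik on the same strand. Reads that fit both genes may have been set aside as ambiguous and not counted for Pam.

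The carboxypeptidases did not pass the test. Cpe (ENSMUSG00000037852, chr8:64592542-64693054, minus strand) had 787, 695 and 731 CPM at 11.8 mM, 777, 816 and 796 CPM at 20 mM and 823, 801 and 755 CPM at 35 mM. The groups overlapped, and its log2 difference was 0.10 at 35 against 11.8 mM (95% interval -0.15 to 0.35, adjusted p = 0.86, edgeR) and 0.11 at 20 against 11.8 mM (95% interval -0.14 to 0.36, adjusted p = 0.90, edgeR). Without replicate 2 at 11.8 mM they were 0.064 and 0.070. The intervals were the narrowest of the 8 tested members.

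Carboxypeptidase D (Cpd, ENSMUSG00000020841, chr11:76778424-76847018, minus strand), the related enzyme of the trans-Golgi network, had 14.1, 17.1 and 20.7 CPM at 11.8 mM, 18.2, 14.4 and 14.9 CPM at 20 mM and 20.7, 24.1 and 21.3 CPM at 35 mM. Its 35 mM libraries lay above those at 20 mM and overlapped with those at 11.8 mM. The log2 difference was 0.48 at 35 against 20 mM (95% interval 0.07 to 0.89, adjusted p = 0.91, edgeR) and 0.35 at 35 against 11.8 mM (95% interval -0.05 to 0.75, adjusted p = 0.57, edgeR). Without replicate 1 at 11.8 mM the 35 against 11.8 mM value was 0.22. The interval is wide at 53 to 83 counts per library.

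Qpct, the glutaminyl cyclase that forms the pyroglutamate end of some peptides, was near the limit of detection. Qpct (ENSMUSG00000024084, chr17:79051906-79090378, plus strand) had 3, 6 and 4 counts at 11.8 mM, 5, 4 and 3 counts at 20 mM and 2, 4 and 6 counts at 35 mM. A difference was not detectable at this depth.

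At 35 against 11.8 mM, 1 of the 8 tested members rose and none fell, beside 0.863% of all 9739 tested genes that passed in either direction. Libraries did not overlap, with 35 mM higher, for 3 members (Pcsk1, Pcsk2 and Pam), beside 8.22% of all genes; none had 35 mM lower without overlap, beside 6.69%. The median log2 difference over the 8 members was 0.21, and over all tested genes it was -0.0027. At 20 against 11.8 mM 1 member rose, none fell and 7 did not pass, beside 0.185% of all genes called in either direction. Libraries did not overlap for 3 members higher at 20 mM (Pcsk1, Pam and Scg5), beside 6.79%, and for 1 lower (Furin), beside 6.04%. The median was 0.14, and over all genes -0.0016.

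At 35 against 20 mM none of the 8 members passed the edgeR test, beside 0.0308% of all genes. DESeq2's Wald test called none of them either, beside 0.0188% of all genes, and at an unadjusted p under 0.05 only Cpd would have counted, beside 5.29% of all genes. Libraries did not overlap for 2 members higher at 35 mM (Cpd and Furin), beside 6.15%, and for none lower, beside 5.76%. The member median was 0.04 and that of all genes -0.0012.

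**Figure D4:**
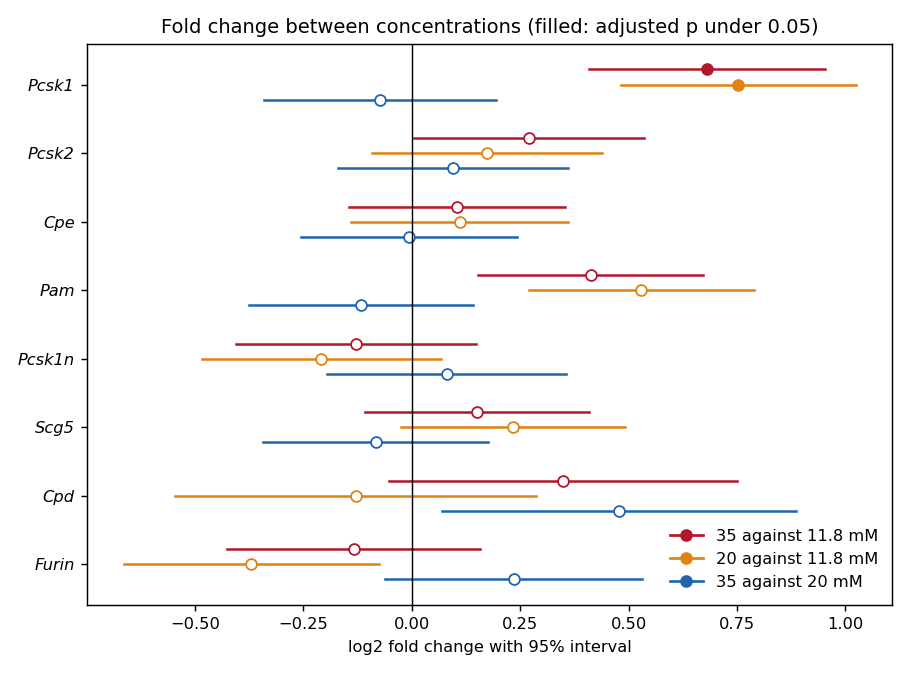
Log2 fold change of the 8 tested members with 95% intervals for 35 against 11.8 mM, 20 against 11.8 mM and 35 against 20 mM; filled points have an adjusted p under 0.05 (edgeR). Pcsk1 at 35 and at 20 against 11.8 mM, at 0.68 and 0.75, are the filled points.

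The genes whose profile lay nearest to that of Pcsk1 were sought among the 5411 genes averaging 10 CPM or more. They were ranked by the root mean square difference of log2 CPM centred on each gene's mean over the 9 libraries. With predicted genes and clones passed over, the nearest were Nucb2 at 0.079, Crem at 0.092 and Ttr at 0.11, against a root mean square of 0.353 for Pcsk1 itself. Nucb2, the precursor of nesfatin, had 50.1 ± 0.711 CPM at 11.8 mM, 94.5 ± 19.3 CPM at 20 mM and 83.6 ± 6.94 CPM at 35 mM. Crem, a transcription factor of the cyclic AMP response element, had 21.7 ± 1.91, 36.3 ± 5.32 and 34.3 ± 2.79 CPM in the same order, and Ttr, the thyroid hormone carrier transthyretin, 937 ± 25.9, 1416 ± 139 and 1495 ± 214 CPM (SD, n = 3 each). For Pcsk2, with a root mean square of 0.158, the nearest by the same rule were Copg1 at 0.066, Capns1 at 0.070 and Tmed5 at 0.070.

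Of the precursor proteins that these enzymes cut in islet cells, 18 of 21 listed genes were tested. The list was chosen with earlier results of these data known, so its share of calls is not an independent result. At 35 against 11.8 mM 7 rose, none fell and 11 did not pass, beside 0.863% of all tested genes called, and the list median was 0.14, beside -0.0027 over all genes. The rises include Pdyn (prodynorphin, 1.12 on the log2 scale), Vgf (1.22), Chgb (chromogranin B, 0.78), Cck (cholecystokinin, 1.92, from a mean of only 3.41 CPM at 11.8 mM), Nucb2 (0.74) and Iapp (amylin, 0.63). At 20 against 11.8 mM 4 rose (Pdyn 1.20, Vgf 0.97, Nucb2 0.91 and Chgb 0.73) and 14 did not pass, beside 0.185% of all genes, with a median of 0.15, beside -0.0016 over all genes. None of the 18 passed at 35 against 20 mM, beside 0.0308% of all genes. The insulin genes Ins1 and Ins2, the most abundant of the list, had log2 differences of 0.10 and -0.24 at 35 against 11.8 mM, neither past the test.

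**Figure D5:**
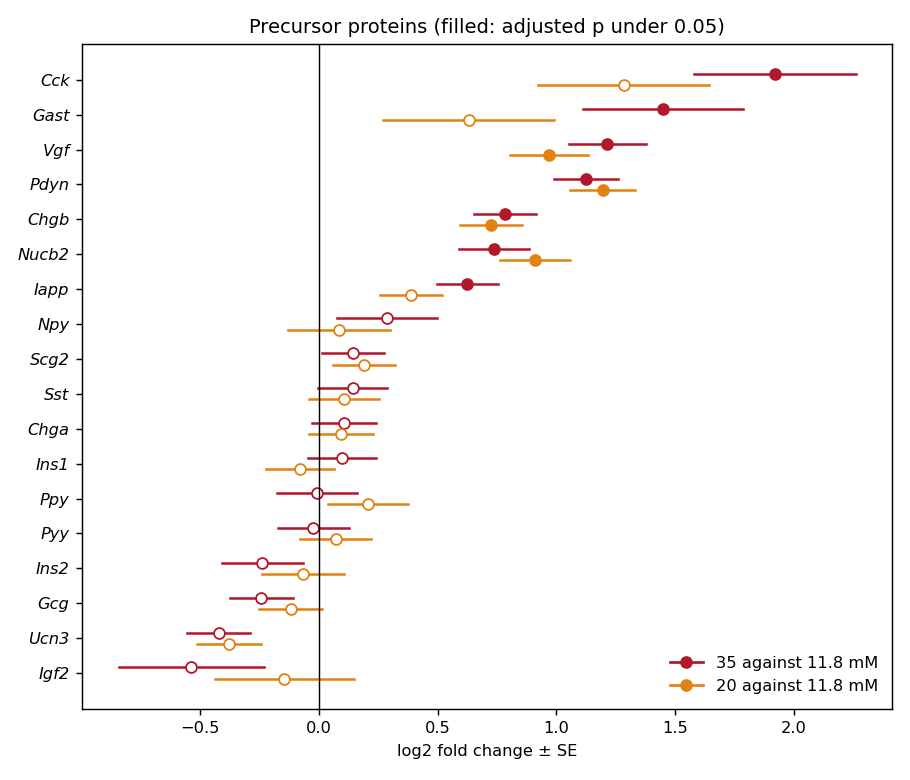
Log2 fold change (± SE) of the 18 tested precursor genes at 35 and at 20 against 11.8 mM glucose; filled points have an adjusted p under 0.05 (edgeR). Pdyn, Vgf, Chgb and Nucb2 are filled at both concentrations.

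Around the members, 12 of 14 other proteases were tested. The counts that follow stand beside 0.863% of all genes called at 35 against 11.8 mM, 0.185% at 20 against 11.8 mM and 0.0308% at 35 against 20 mM. Of the proteases 1 rose at 35 against 11.8 mM, Bace2, a protease of the beta cell surface, with 320 ± 8.04 CPM at 35 mM and 202 ± 4.67 CPM at 11.8 mM (log2 0.66, adjusted p = 0.0026, edgeR), while the list median was -0.0049, beside -0.0027 over all genes; none passed at 20 against 11.8 mM or at 35 against 20 mM. None of the 8 tested end-trimming enzymes passed in any comparison. Their median was 0.24 at 35 against 11.8 mM, -0.067 at 20 against 11.8 mM and 0.31 at 35 against 20 mM. Over all genes the median was -0.0027, -0.0016 and -0.0012 in the same order. Dpp7 and Qpctl, with the smallest p at 35 against 11.8 mM, had log2 differences of -0.66 and 0.50 there. Of 13 genes for the granule's acidity, metal ions and chaperones, 1 fell at 35 against 11.8 mM, beside 0.863% of all genes, and none passed in the other comparisons. It was Resp18, an endocrine secretory protein, with 210 ± 8.06 CPM at 35 mM and 316 ± 61.2 CPM at 11.8 mM (log2 -0.59, adjusted p = 0.0255, edgeR), and the list median was 0.15.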

How the data were processed

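RNA of islets at 11.8, 20 and 35 mM glucose, 3 samples each, was made into CEL-Seq2 libraries from 3 ng, per the labels' protocols. The authors deposited raw read counts per gene for 27 barcoded sub-libraries, for which the submitters' processing notes list cutadapt, TopHat, HTSeq, DESeq2 and the build GRCm38.p4; tool versions, the annotation and the strand setting were not given in the sources used here. Reads were not collapsed to UMIs, since 16 genes exceeded the 4096 possible UMIs, so amplified copies are not independent molecules.

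Sub-libraries were summed to 9 libraries through the deposited sample sheet; 30 other columns matched no sample's labels and were not used here. ERCC spike-ins (92 features) and 5 summary lines, 19.6% to 29.9% of reads, stayed out. Identifiers were matched to GENCODE M21 for 21781 genes, and 267 had no symbol. Members were located on GRCm38. Promoters are RefSeq's.

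Counts were tested with edgeR 4.0.16 in R 4.3.3 (TMM, filterByExpr, robust quasi-likelihood test, 1 mean per concentration, 6 residual degrees of freedom, tested on simulated data), with Benjamini-Hochberg adjustment over 9739 genes at a threshold of 0.05. DESeq2 1.42.0 was an alternative, beside other filters and scalings, single libraries or barcode sets, the replicate block and an acinar covariate. Named genes were the members, called genes of 4 surrounding lists (at most 6 a list, otherwise the 2 of smallest p) and the 3 genes nearest to Pcsk1 and Pcsk2, predicted genes and clones left out. Members, lists and rules were chosen with earlier results of these data known.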

Additional observations from a re-analysis of the deposited data

How the results depend on the processing

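The rise of Pcsk1 kept its sign in all 22 alternatives, with log2 values of 0.54 to 0.78 at 35 against 11.8 mM and 0.61 to 0.86 at 20 against 11.8 mM. Of the members, 1 was called in each of these comparisons. At 35 against 11.8 mM it was 2 (Pam and Pcsk1) with DESeq2's Wald test, 0 with barcode set 1 or 3 alone and 1 to 1 with each library left out. At 20 against 11.8 mM it was 2 (again Pam and Pcsk1) with no filter, with DESeq2's Wald test, and with that test on the filtered genes, an alternative added after seeing the data; it was 0 with barcode set 1 or 3 alone and 0 to 2 with each library left out. With barcode set 2 alone Pcsk1 stayed called at 35 mM (adjusted p = 0.011, edgeR) and at 20 mM (adjusted p = 0.0094, edgeR). With set 3 alone its log2 values were 0.54 (adjusted p = 0.16, edgeR) and 0.61 (adjusted p = 0.13, edgeR). Single barcode sets hold fewer reads than the summed libraries, but the cause of these changes was not tested. At 35 against 20 mM 0 members were called in all 22. Signs turned, always without a call, for these log2 values. With each library left out, the range was -0.22 to 0.0018 for Pcsk1n at 35 against 11.8 mM, -0.26 to 0.0040 for Cpd at 20 against 11.8 mM, and at 35 against 20 mM -0.14 to 0.050 for Pcsk1, -0.032 to 0.028 for Cpe and -0.016 to 0.16 for Pcsk1n; the Scg5 to Pcsk2 log2 ratio ran over -0.30 to 0.053 at 35 against 11.8 mM and -0.12 to 0.23 at 20 against 11.8 mM. With barcode set 1 alone the values were 0.16 for Cpd at 20 against 11.8 mM and, at 35 against 20 mM, 0.10 for Pam and -0.038 for Pcsk1n. With set 2 they were 0.034 for Pcsk1n and 0.25 for Furin at 35 against 11.8 mM, 0.062 for Cpe at 35 against 20 mM and -0.089 for the Scg5 to Pcsk2 ratio at 20 against 11.8 mM. With set 3 Cpe had -0.066 at 35 against 11.8 mM, and without the sub-libraries low in an insulin gene it had 0.0030 at 35 against 20 mM. Samples that share a replicate number did not visibly deviate together (correlations of -0.146 to 0.046, beside -0.159 to 0.163 for unlike numbers). With 3 libraries at each concentration this cannot settle whether the number pairs samples, and the labels do not say. With the replicate block Pcsk1 had 0.68 (adjusted p = 0.013, edgeR) and 0.75 (adjusted p = 0.017, edgeR), and the members called were 1, 1 and 0. In all, 74, 13 and 3 genes were called with the block, against 84, 18 and 3 without it. Over all genes, the 84 calls at 35 against 11.8 mM became 148 with no filter, 12, 42 and 39 with the barcode sets and 41 to 138 with each library left out. The 18 calls at 20 against 11.8 mM became 51 with no filter, 65 with DESeq2, 34 with DESeq2 on the filtered genes, 11 with the acinar covariate or only the 2 concentrations, 2 and 8 with barcode sets 1 and 2, and 7 to 35 with each library left out, and the 3 calls at 35 against 20 mM became 7 with the acinar covariate, 1 with each barcode set and 1 to 7 with each library left out. Depth limits Qpct and Cpd, and intervals cover the spread between libraries only.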
